A study of Mus musculus with 4 samples.

Results

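The Dusp, Sprouty and Spred genes of ERK feedback were followed in leukemic whole bone marrow of C57BL/6 mice. All 10 of the listed genes, Dusp1, Dusp2, Dusp4, Dusp5, Dusp6, Spry1, Spry2, Spry4, Spred1 and Spred2, were measured, among 19938 genes with a probe set assigned to 1 symbol. They were chosen by name, and for Spred2, the single gene among them with 2 probe sets, the brighter one was used. Every marrow carried an acute myeloid leukemia that expressed the fusion oncogene MLL-AF9. The groups were Hes1-null (MLL-AF9/Hes1-/-, 2 arrays) and wild type (MLL-AF9/Hes1+/+, 2 arrays), and no drug treatment is named for either. Age, the way in which MLL-AF9 was introduced, the way in which Hes1 was deleted and the number of mice behind an array are not given in the sources used here. At issue is how the loss of Hes1, a repressor that Notch signalling induces, alters expression in this leukemia.

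ERK is the last kinase of the cascade that carries signals from growth factor and cytokine receptors through Ras, Raf and MEK to the nucleus. Active ERK induces its own inhibitors. The dual-specificity phosphatases encoded by Dusp genes remove phosphate from MAP kinases, the Sprouty proteins hold back the step from receptor to Ras and Raf, and the Spred proteins bring the Ras inhibitor neurofibromin to the membrane. In myeloid leukemia, transcripts of these genes are often read as a gauge of signalling through Ras and ERK. Hes1 is a basic helix-loop-helix protein that binds N-boxes and class C boxes in DNA and represses transcription there.

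The promoters of Dusp1 and Dusp2, the feedback genes with the largest differences from wild type on Hes1-null replicate 1, are shown beside those of Dusp5 and Dusp6, in which that array lay between the wild-type arrays. RefSeq (GRCm38.p6) gave a promoter for 8 of the 10 genes, all but Dusp4 and Spry4. The 250 bases upstream of the annotated start are printed 5′ to 3′ on the gene's strand. Capitals mark matches to the N-box, the class C box, the cyclic AMP response element (CRE) with its core, and the CArG box, which is the core of serum response elements.
Dusp1, chr17:26508473-26508722, minus strand: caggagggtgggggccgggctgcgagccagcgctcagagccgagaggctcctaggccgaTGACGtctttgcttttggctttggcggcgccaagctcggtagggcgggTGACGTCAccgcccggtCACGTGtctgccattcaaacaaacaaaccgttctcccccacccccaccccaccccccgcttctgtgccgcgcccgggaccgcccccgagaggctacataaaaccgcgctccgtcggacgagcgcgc
Dusp2, chr2:127335909-127336158, plus strand: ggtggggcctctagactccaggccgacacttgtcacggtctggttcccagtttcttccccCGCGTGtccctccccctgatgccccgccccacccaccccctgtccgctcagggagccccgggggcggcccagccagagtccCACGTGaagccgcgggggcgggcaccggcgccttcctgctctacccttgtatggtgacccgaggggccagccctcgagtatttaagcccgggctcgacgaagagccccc
Dusp5, chr19:53528895-53529144, plus strand: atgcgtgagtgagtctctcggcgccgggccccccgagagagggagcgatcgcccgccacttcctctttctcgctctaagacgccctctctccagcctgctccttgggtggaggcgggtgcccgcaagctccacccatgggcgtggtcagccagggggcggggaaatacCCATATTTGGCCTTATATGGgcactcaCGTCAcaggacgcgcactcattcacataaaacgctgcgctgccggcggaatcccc
Dusp6, chr10:99262981-99263230, plus strand: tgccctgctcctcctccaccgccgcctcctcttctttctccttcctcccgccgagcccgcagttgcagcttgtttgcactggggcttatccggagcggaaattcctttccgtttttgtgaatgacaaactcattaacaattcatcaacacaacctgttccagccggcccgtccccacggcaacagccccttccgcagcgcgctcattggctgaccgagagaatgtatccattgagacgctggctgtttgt

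The Dusp1 window held CACGTG, which matches the class C box (CACGNG) and is also an E-box, from -126 to -121 relative to the start. Its full CRE (TGACGTCA) lay from -143 to -136, and a further CRE core (TGACG) began at -191. Dusp2 also held CACGTG, from -109 to -104, and a second class C box from -190 to -185. The pair were the 2 of 8 windows with CACGTG, which 6.02% of all 32851 RefSeq promoters of this length hold. Spry1 held a class C box of another spelling, which made 3 of 8 windows, against 23.5% of all promoters. The N-box (CACNAG) had 0 matches in the 8 windows, and 36.7% of all promoters hold one.

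Dusp5 carried adjoining CArG boxes starting at -82 and -72, an element that 1.47% of all promoters hold, and a CRE core. The Spred2 window held a CRE core as well, so that 3 of the 8 windows matched TGACG, against 17.8% of all promoters. The full CRE was in Dusp1 alone among them, against 1.55% of all promoters, and Dusp6 matched none of these letters. The AP-1 site (TGANTCA) and the ETS site (CCGGAAG) had 0 matches, and 6.75% and 6.91% of all promoters hold them. The GC box (GGGCGG, not in capitals) was in 6 of the 8 windows and in 32.7% of all promoters, and the TATA box (TATAAA) in 0 of 8 and 12.4%. The 8 windows were 56% to 70.8% GC, above the median of 52.4% over all promoters, and the shares were not matched for GC content. Both strands were searched in every case, and CACGTG, which is contained in the class C box, was set apart after the matches had been seen. A match is a string of letters and not a bound site.

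The 4 arrays did not stand equally close to each other. Across genes the Hes1-null arrays correlated at r = 0.982 and the wild-type arrays at r = 0.995. On Hes1-null replicate 2, 785 genes lay at least 2-fold from the wild-type mean, and on Hes1-null replicate 1, 449 genes did. Xist, the RNA of the inactive X chromosome, lay at 11.73 or above on the other arrays and at 7.25 on Hes1-null replicate 2 (log2 level), while none of the Y-linked genes Eif2s3y, Kdm5d, Usp9y and Uty exceeded 4.09 on any array. Hes1 itself was at 5.59 and 5.79 in wild type and at 5.43 and 5.84 in Hes1-null marrow, so that its level did not separate the genotypes. The probe set may lie outside the deleted part, and Hes1-null below means labelled so. Hematopoietic and leukemia markers were present on every array: the log2 level of Ptprc (CD45) ran from 10.38 to 10.50 and that of the MLL target Hoxa9 from 10.40 to 10.78.

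All 10 feedback genes had a positive difference, Hes1-null minus wild type, where 46.4% of all genes did. All 10 reached their highest level on Hes1-null replicate 2, which was the highest array for 35.8% of all genes. Only Dusp1 and Dusp2 also stood well above wild type on Hes1-null replicate 1. For the other 8 genes, Hes1-null replicate 1 lay from -0.032 to 0.23 relative to the wild-type mean (log2), and Hes1-null replicate 2 lay 0.52 to 1.22 above that mean. By limma's moderated test 0 of the 10 passed an adjusted p of 0.05, where 0.145% of all genes did. At an unadjusted p of 0.05, Dusp1 and Dusp2 were higher and 0 were lower, where 3.51% of all genes were higher and 4.78% lower. With the arrays centred on their medians these shares were 4.39% and 4.03%.

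**Figure D1:**
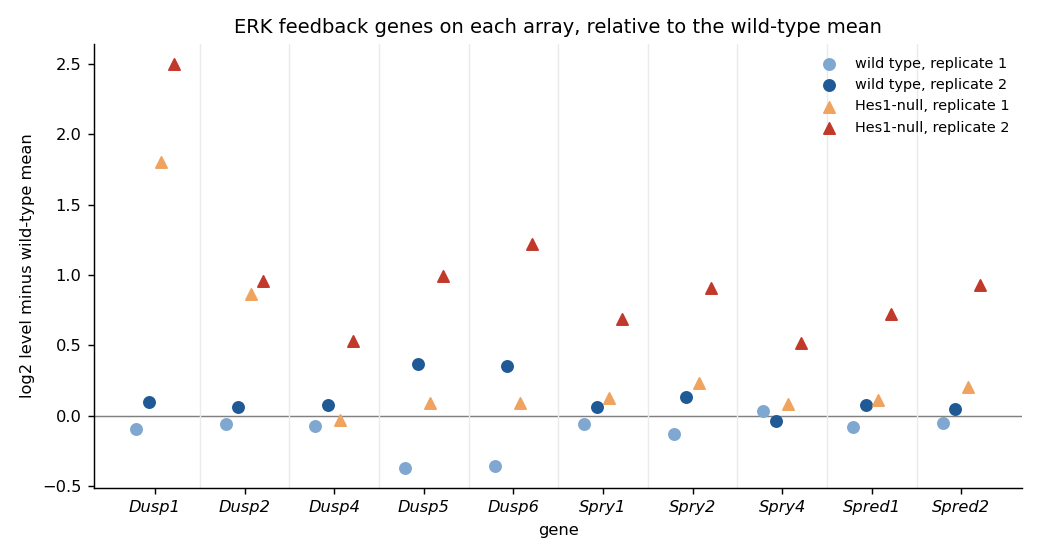
Log2 level of each feedback gene on each array minus the mean of the 2 wild-type arrays (vertical axis), with 1 point per array. Circles are wild-type and triangles Hes1-null arrays. Dusp1 and Dusp2 lie above wild type on both Hes1-null arrays, and the other 8 genes stand apart on Hes1-null replicate 2, by 0.52 to 1.22.

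Dusp1 encodes a nuclear phosphatase that acts on JNK and p38 as well as on ERK and is itself an immediate early gene. Its log2 level was 10.17 and 10.37 on wild-type replicates 1 and 2, and 12.08 and 12.77 on Hes1-null replicates 1 and 2. The genotypes did not overlap, and the gap between them was larger than the gap within either. Hes1-null replicate 1 lay 3.50-fold and Hes1-null replicate 2 lay 5.65-fold above the wild-type mean. The difference was 2.15 ± 0.24 (SE, n = 2 arrays per genotype; 4.44-fold, 95% interval 1.55 to 2.76 on the log2 scale). Its unadjusted p was 0.000194 and its adjusted p over all genes was 0.0774 by limma, so that it missed the threshold. It passed with array weights (adjusted p = 0.0235 by limma), and without Hes1-null replicate 1 its difference was 2.50. Over all 14 alternatives tried, the adjusted p of Dusp1 ran from 0.0159 to 0.0929.

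Dusp2 encodes another nuclear phosphatase, PAC-1, known from activated leukocytes. In wild type its log2 level was 7.06 and 7.18, and in Hes1-null marrow it was 7.99 and 8.08 (replicates 1 and 2 in order). Here both Hes1-null arrays stood equally high, 1.83-fold and 1.94-fold above the wild-type mean. The Hes1-null arrays were 0.09 apart (log2) and the wild-type arrays 0.12, which made Dusp2 the exception among the 10 genes. In the other 9 the Hes1-null arrays were farther apart than the wild-type arrays, as they were in 72.1% of all genes. The difference of Dusp2 was 0.91 ± 0.16 (1.88-fold, 95% interval 0.51 to 1.31, unadjusted p = 0.0018), and its adjusted p by limma was 0.183. Without Hes1-null replicate 1 the difference was 0.95 and the adjusted p 0.0456, and over the 14 alternatives that p ran up to 1, which it was without either wild-type array.

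Dusp6, the cytoplasmic phosphatase of ERK and a common readout of its activity, varied within both genotypes. Its log2 level in wild type was 8.20 on replicate 1 and 8.91 on replicate 2, and in Hes1-null marrow it was 8.64 and 9.78. Hes1-null replicate 1 therefore fell between the wild-type arrays, and Hes1-null replicate 2 was 2.33-fold above their mean. The difference was 0.65 ± 0.44 (95% interval -0.44 to 1.75, adjusted p = 0.784 by limma). Leaving out Hes1-null replicate 2 gave a difference of 0.09, and leaving out Hes1-null replicate 1 gave 1.22.

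Dusp5, the nuclear phosphatase restricted to ERK, had the same order of arrays as Dusp6. Its log2 level was 7.13 and 7.86 in wild type and 7.58 and 8.48 in Hes1-null marrow. The genotypes overlapped, since Hes1-null replicate 1 was below wild-type replicate 2. The difference of 0.54 ± 0.39 had an interval from -0.43 to 1.51, and it was 0.09 without Hes1-null replicate 2. Dusp4 encodes a nuclear phosphatase of ERK and JNK, and like Spry4 it lay under the median gene level of 6.36, in data without detection calls. In wild type it was at 5.10 and 5.24 and in Hes1-null marrow at 5.14 and 5.70, so that Hes1-null replicate 1 again fell between the wild-type arrays. The difference was 0.25 ± 0.21, and without Hes1-null replicate 2 it was -0.032.

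**Figure D2:**
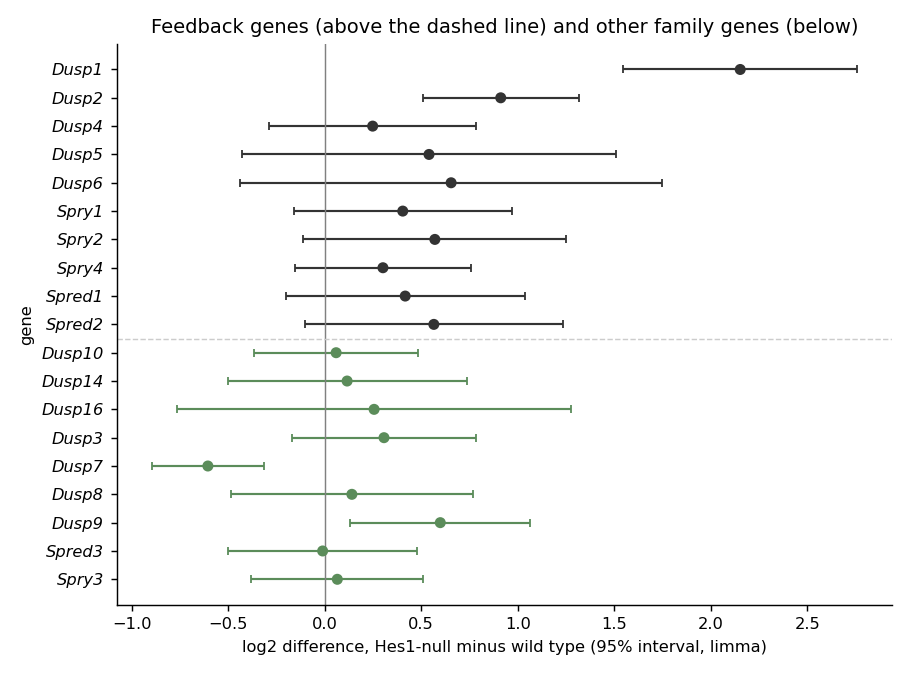
Log2 difference, Hes1-null minus wild type, with limma's 95% interval (horizontal axis) for the 10 feedback genes above the dashed line and 9 other genes of the same families below it. The intervals of Dusp1, Dusp2, Dusp7 and Dusp9 lie clear of 0, with Dusp7 on the negative side, before any adjustment for the number of genes tested.

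The 3 Sprouty genes had both Hes1-null arrays above both wild-type arrays, as 17.4% of all genes had, but the step from wild type to Hes1-null replicate 1 was small in each. In wild type Spry2 was at 7.35 and 7.61, and in Hes1-null marrow at 7.71 and 8.39 (log2 level). Hes1-null replicate 1 was thus just above the higher wild-type array, and Hes1-null replicate 2 stood 1.88-fold above the wild-type mean. The difference of Spry2 was 0.57 ± 0.27 (95% interval -0.11 to 1.25, adjusted p = 0.673 by limma). Spry1 was at 6.55 and 6.67 in wild type and at 6.74 and 7.30 in Hes1-null marrow, a difference of 0.40 ± 0.22. Spry4 was at 5.68 and 5.60 in wild type and at 5.73 and 6.16 in Hes1-null marrow, a difference of 0.30 ± 0.18. In both genes Hes1-null replicate 1 cleared the wild-type arrays by less than the wild-type arrays differed from each other. Spry4 was the single feedback gene that was lower on wild-type replicate 2 than on wild-type replicate 1. Without Hes1-null replicate 2 the differences of Spry1, Spry2 and Spry4 were 0.12, 0.23 and 0.09. With that array kept and Hes1-null replicate 1 left out they were 0.69, 0.91 and 0.52.

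Both Spred genes, which encode membrane-bound partners of neurofibromin, also had both Hes1-null arrays above both wild-type arrays, as 17.4% of all genes had. In wild type Spred2 was at 9.15 and 9.24, and in Hes1-null marrow at 9.40 and 10.12 (log2 level). The difference was 0.57 ± 0.27 (95% interval -0.10 to 1.23, adjusted p = 0.669 by limma). It was 0.20 when Hes1-null replicate 2 was left out, and 0.93 when Hes1-null replicate 1 was. A second Spred2 probe set, which did not stand for the gene, had the same order of arrays, at 7.81 and 7.90 in wild type and 8.08 and 8.30 in Hes1-null marrow, with a smaller difference of 0.33 ± 0.17. Spred1 was at 7.50 and 7.66 in wild type and at 7.69 and 8.30 in Hes1-null marrow. Its difference of 0.42 ± 0.25 was 0.11 when Hes1-null replicate 2 was left out and 0.72 when Hes1-null replicate 1 was. Hes1-null replicate 1 exceeded the higher wild-type array of Spred1 by so little that the genotypes overlapped when the arrays were quantile normalized again.

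Both Hes1-null arrays were above both wild-type arrays in 7 of the 10 feedback genes, against 17.4% of all genes, and Dusp4, Dusp5 and Dusp6 overlapped between genotypes. In 0 of 10 both Hes1-null arrays were below, as they were in 20.6% of all genes. The median difference over the 10 was 0.55, against -0.02 over all genes. Read array by array, the median against the wild-type mean was 0.12 on Hes1-null replicate 1 and 0.92 on Hes1-null replicate 2, against -0.04 and 0.01 over all genes. At least 2-fold above the wild-type mean were 1 of 10 on Hes1-null replicate 1 (Dusp1; 1.01% of all genes) and 2 of 10 on Hes1-null replicate 2 (Dusp1 and Dusp6; 1.31% of all genes). Several genes lay close to that line on Hes1-null replicate 2, and 5 of 10 passed it when the arrays were quantile normalized again. A reading of 1 array has no test. Summed over the 10 genes, the linear intensity was 2812 and 3370 in wild type and 6450 and 10526 in Hes1-null marrow, but Dusp1 made up most of the Hes1-null sums. Without it the other 9 summed to 1656 and 2051 in wild type and to 2132 and 3549 in Hes1-null marrow, so that Hes1-null replicate 1 lay next to wild-type replicate 2. Within wild type the genes also shared an order, since 9 of 10 were higher on replicate 2 than on replicate 1, with gaps of 0.74 in Dusp5 and 0.71 in Dusp6 and of at most 0.26 in the others.

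**Figure D3:**
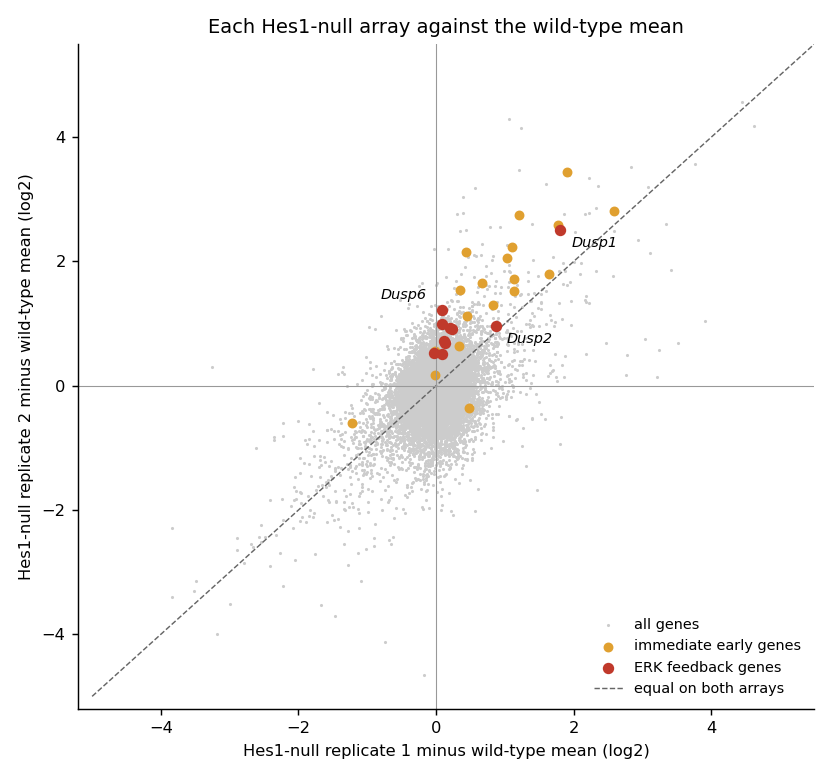
Hes1-null replicate 1 (horizontal) and Hes1-null replicate 2 (vertical), each as log2 level minus the wild-type mean, with 1 point per gene. The feedback genes (red) other than Dusp1 and Dusp2 form a column from -0.032 to 0.23 on the horizontal axis and from 0.52 to 1.22 on the vertical one. Dusp2 lies near the line of equality.

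A list of 9 other genes of these families, chosen by name, did not all share one direction. Of these, 7 of 9 had a positive difference, where 46.4% of all genes did. Hes1-null replicate 2 was the highest array for 6 of the 9, and for 35.8% of all genes. Of 9, 0 passed the adjusted threshold, and at an unadjusted p of 0.05 Dusp9 was higher and Dusp7 lower (3.51% and 4.78% of all genes). Dusp7, a cytoplasmic ERK phosphatase like Dusp6, lay at 11.36 and 11.32 in wild type and at 10.68 and 10.79 in Hes1-null marrow (log2 level), a difference of -0.60 ± 0.12 with an adjusted p of 0.210 by limma. Dusp7 was therefore lower on both Hes1-null arrays, by similar amounts. Dusp9, another phosphatase of that cytoplasmic group, lay at 7.20 and 7.11 in wild type and at 7.92 and 7.58 in Hes1-null marrow, a difference of 0.60 ± 0.19 with an adjusted p of 0.474. Dusp3 and Dusp16 differed by 0.31 ± 0.19 and 0.26 ± 0.40. The sign of Dusp16 depended on the arrays, with -0.32 on Hes1-null replicate 1 and 0.83 on Hes1-null replicate 2 against the wild-type mean. The median of the 9 was -0.19 on Hes1-null replicate 1 and 0.43 on Hes1-null replicate 2.

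Genes of the ERK cascade itself lay on both sides of 0. Of 22 listed, 15 had a probe set with 1 symbol, and the others were not analysed here. At an unadjusted p of 0.05, 1 was higher and 2 were lower, where 3.51% of all genes were higher and 4.78% lower. Of the 15, 0 passed the adjusted threshold, and the median difference was -0.06. Gab1, an adaptor between receptors and Ras, lay at 6.37 and 6.36 in wild type and at 5.31 and 5.76 in Hes1-null marrow (log2 level; -0.83 ± 0.19, adjusted p = 0.279 by limma). Map2k1, which encodes the ERK-activating kinase MEK1, was at 9.18 and 9.21 in wild type and at 8.75 and 8.50 in Hes1-null marrow (-0.57 ± 0.17). The scaffold gene Ksr1 differed by 0.51 ± 0.17 and the kinase gene Braf by -0.42 ± 0.17. The JNK and p38 cascade, on which Dusp1 also acts, had 15 measured of 16 listed, 0 higher and 2 lower at that unadjusted p, and a median of -0.14. Map3k5, encoding the stress kinase ASK1, and the p38 substrate gene Mapkapk3 differed by -0.61 ± 0.21 and -0.37 ± 0.15. Map3k1 and Mapkapk2 differed by -0.30 ± 0.18 and -0.22 ± 0.13.

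Brakes on Ras and on receptors outside the 3 families were mixed, with 2 higher and 1 lower of 19 at an unadjusted p of 0.05. Over all genes 3.51% were higher and 4.78% lower at that p. Of the 19, 0 were past the adjusted threshold, and the median was 0.04. Errfi1, a feedback inhibitor of EGF receptors that growth factors induce, lay at 7.04 and 7.36 in wild type and at 7.73 and 8.04 in Hes1-null marrow (log2 level; 0.68 ± 0.20, adjusted p = 0.458 by limma). The Ras GTPase-activating protein gene Dab2ip differed by 0.68 ± 0.19, the ubiquitin ligase gene Cblb by 0.49 ± 0.21, and Rasa2, another Ras GTPase-activating protein gene, by -0.80 ± 0.26. Genes known as transcriptional outputs of ERK had 7 higher and 0 lower of 18 at that unadjusted p (3.51% and 4.78% of all genes) and a median of 0.28. Among them Fos lay at 8.02 and 8.05 in wild type and at 9.24 and 10.78 in Hes1-null marrow (1.97 ± 0.49), so that it was high on both Hes1-null arrays and highest on replicate 2. Egr1, Ier3 and Maff differed by 1.72 ± 0.38, 1.16 ± 0.35 and 0.65 ± 0.13, with adjusted p of 0.273, 0.455 and 0.217. Of the 18, 15 had a positive difference and 3 a negative one. Fosl1 had both Hes1-null arrays below both wild-type arrays (-0.47 ± 0.21). Against the wild-type mean Myc was at 0.29 on Hes1-null replicate 1 and -1.26 on Hes1-null replicate 2 (both named after their values were seen).

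**Figure D4:**
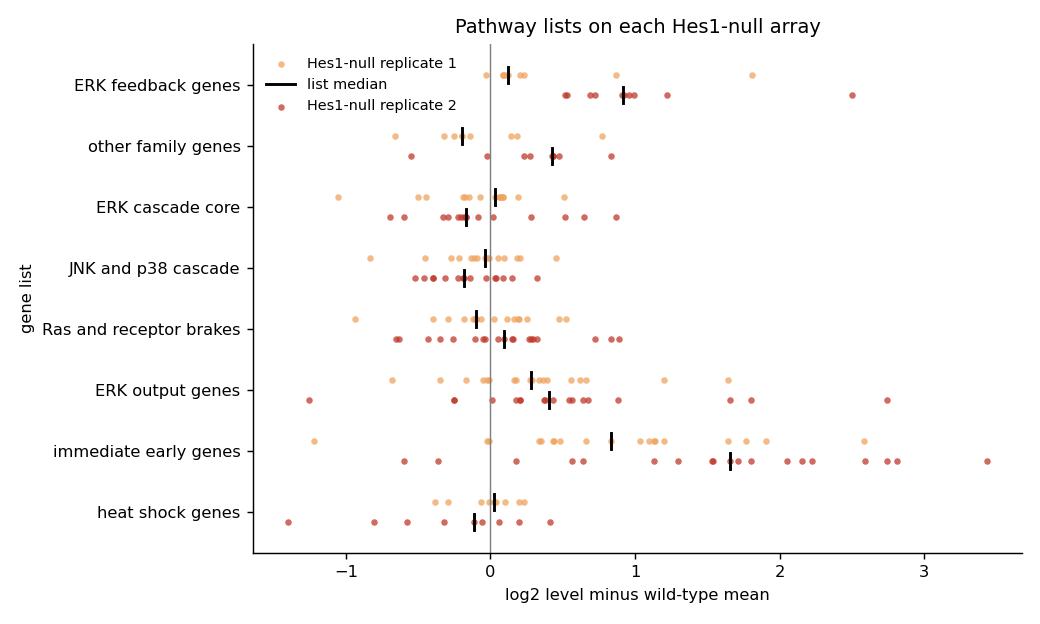
Log2 level minus the wild-type mean (horizontal axis) for each gene of 8 lists, on Hes1-null replicate 1 (orange) and Hes1-null replicate 2 (red), with black bars at list medians. The feedback genes have medians of 0.12 and 0.92 and the immediate early genes of 0.83 and 1.66, while the medians of the cascade lists stay between -0.18 and 0.03.

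Immediate early genes can respond to sample handling as well as to signalling. Of 19 measured, 15 had both Hes1-null arrays above both wild-type arrays and 1 had both below, against 17.4% and 20.6% of all genes. The list shares 6 genes with the ERK outputs (6 of 19 and 6 of 18). Their summed linear intensity was 5567 and 5797 on wild-type replicates 1 and 2, and 11355 and 18581 on Hes1-null replicates 1 and 2. Jun rose by 2.70 ± 0.16 (adjusted p = 0.0231 by limma), with an adjusted p from 0.0068 to 0.0700 over the 14 alternatives, the highest without wild-type replicate 2. Zfp36, Jund and Fosb differed by 1.34 ± 0.18, 1.42 ± 0.23 and 2.18 ± 0.37 and did not pass. Unlike the 8 feedback genes outside Dusp1 and Dusp2, this list was also higher on Hes1-null replicate 1, with a median of 0.83 against the wild-type mean, and 1.66 on replicate 2. Heat shock genes had 2 of 9 higher and 2 of 9 lower on both Hes1-null arrays, near those shares of all genes, and a median of -0.14. Dnajb1, Hsph1, Hspe1 and Hspb1 differed by 0.32 ± 0.17, -0.73 ± 0.43, -0.29 ± 0.22 and -0.18 ± 0.14. The part of sample handling in the feedback genes was not tested.

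Most of the listed monocyte, macrophage and neutrophil markers had both Hes1-null arrays below both wild-type arrays, and Vcam1 and Ltf passed the test. Over all genes, 20.6% had both Hes1-null arrays below and 17.4% had both above, and the counts of each marker list stand beside these shares. In whole marrow fewer cells of a type and less RNA per cell cannot be told apart. Of 12 measured monocyte and macrophage markers 10 were lower on both, and their summed linear intensity was 13460.2 to 14239.8 in wild type and 8291 to 8455 in Hes1-null marrow. Of 15 neutrophil markers 11 were lower on both, with sums of 38082 to 44046 in wild type and 21232 to 21267 in Hes1-null marrow. The macrophage marker Cd68 and the neutrophil genes Mmp8 and Ctsg went the other way, with both Hes1-null arrays above both wild-type arrays (named after their values were seen). Vcam1 and Ltf fell by 2.62 and 2.77 on the log2 scale (adjusted p = 0.0242 and 0.0398 by limma). Over the 14 alternatives these p ran from 0.0106 to 0.0700 for Vcam1 and from 0.0131 to 0.0775 for Ltf. Both missed the threshold when wild-type replicate 2 was left out (0.0700 and 0.0726) or Hes1-null replicate 2 (0.0532 and 0.0775), and Ltf also at the filters on level (0.0525 and 0.0728). The neutrophil markers differed between the Hes1-null arrays, with a median against the wild-type mean of -1.80 on replicate 1 and -1.002 on replicate 2 and 12 of 15 higher on replicate 2. The monocyte and macrophage markers had medians of -0.89 and -0.81, and 7 of 12 were higher on replicate 2. T cell markers were lower on both in 6 of 7 (642 to 979 against 380 to 431), NK cell markers in 3 of 7 (461 to 782 against 229 to 324) and platelet markers in 5 of 6 (1093 to 1106 against 606 to 607). B cell markers were lower on both in 1 of 7 (1161 to 1171 against 947 to 1732), erythroid markers in 1 of 6 (643 to 783 against 615 to 629), and stromal and endothelial markers in 6 of 10 (2675 to 3091 against 1520.0 to 1888). The gaps in the stromal, NK cell and T cell sums rested mostly on Lpl, Nkg7 and Cd28. Lpl lay at 10.30 and 10.62 in wild type and at 8.23 and 7.23 in Hes1-null marrow (log2 level). In the same order Nkg7 lay at 8.13 and 9.26 and at 7.41 and 5.82, and Cd28 at 9.07 and 7.86 and at 6.14 and 6.07. Both Hes1-null arrays were above wild type in 1 stromal and endothelial marker, 1 T cell marker and 0 NK cell markers. The part of cell composition in the feedback genes was not tested. The receptor gene Flt3 lay at 10.13 and 9.27 in wild type and at 11.79 and 11.50 in Hes1-null marrow (adjusted p = 0.142 by limma). Kit, another receptor gene, went the other way, at 9.02 and 8.87 in wild type and at 8.29 and 6.39 in Hes1-null marrow (adjusted p = 0.578).

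Profiles most like those of Dusp1 and Dusp2 were sought among 13868 other named genes, by the Euclidean distance between log2 levels over the 4 arrays, each taken relative to the gene's wild-type mean. Nearest to Dusp1 were Trp53i11 (distance 0.15) and the acetylcholine receptor subunit gene Chrnd (0.22), followed by Bbx, Spata6 and Nxf7 (0.44 to 0.59). Trp53i11 lay at 7.30 and 7.70 in wild type and at 9.35 and 10.02 in Hes1-null marrow (log2 level), so that its distance from wild type on each array was close in size to that of Dusp1. Nearest to Dusp2 was Dync2h1 (0.07), a motor gene of cilia, at 6.04 and 6.13 in wild type and at 6.99 and 7.09 in Hes1-null marrow. Foxp4, Fmn1, Glod5 and Tbrg1 followed at 0.09 to 0.16. With 4 arrays such likeness is a description of these samples.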

How the data were processed

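Total RNA of leukemic whole marrow was hybridised to Affymetrix MoGene-1_0-st-v1 arrays, 1 per sample. Per the submitters' processing notes, the deposited intensity of each probe set was made with Affymetrix Expression Console and RMA. Versions are not given in the sources used here, and the values are linear. Log2 was taken with nothing added. Such values do not show whether a sample held more RNA in total, and the number of arrays limits precision. Of 35556 probe sets 21789 carry 1 symbol in the platform annotation. All 19938 genes were fitted with limma 3.58.1 in R 4.3.3 (lmFit, eBayes with an intensity trend, two-sided, genotype the only term), with Benjamini-Hochberg adjustment over all genes and a threshold of 0.05. The test was tried on simulated data. The labels do not say that samples came from separate animals, so p-values measure only the spread between these samples, which may be technical. The 10 genes, the lists and the tests were chosen with earlier results of these data known. All 10 genes are described, with up to 4 genes per pathway list and up to 3 per marker list with the smallest unadjusted p. Likeness was sought for feedback genes with an unadjusted p under 0.05, among genes above the 25th percentile of level. Hes1, Ptprc, Hoxa9, Xist and the Y-linked genes are named as checks.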

Additional observations from a re-analysis of the deposited data

How the results depend on the processing

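Over 14 alternatives the 10 feedback genes kept a positive difference, except Dusp4 when Hes1-null replicate 2 was left out. Its values with 1 array left out ran from -0.032 to 0.53. Leaving out 1 array in turn, 0 to 3 of the 10 were called, 2 to 10 passed an unadjusted p of 0.05 (10 without Hes1-null replicate 1, where 12.7% of all genes were higher and 16.3% lower at that p), the median difference ran from 0.12 to 0.92, and 1 to 5 were at least 2-fold up on Hes1-null replicate 2. The lone array left in a genotype is then assumed to vary like the other group. The median of the other family genes ran from -0.19 to 0.43, and Dusp16, from -0.32 to 0.83, changed sign when wild-type replicate 1 (-0.0086) or Hes1-null replicate 2 was left out. The replicate block gave 1 feedback gene called (Dusp1, adjusted p = 0.0159 by limma) and 89 calls over all genes in place of 29. At the unadjusted p it gave 6 feedback genes, where 3.46% of all genes were higher and 4.88% lower. Across all genes same-numbered arrays, however, deviated together at r = 0.05 only, and nothing in the labels says that a number marks a shared animal or day. Among the feedback genes, replicate 2 was above replicate 1 in 9 of 10 in wild type and in 10 of 10 in Hes1-null marrow. In Hes1-null marrow 11205 of all 19938 genes had that order. Array weights called 1 (Dusp1, 45 calls over all genes). Quantile normalization again put 5 at least 2-fold up on Hes1-null replicate 2 and left 6 of 10 with both Hes1-null arrays above wild type, against 21.2% of all genes. The median filter on level dropped Dusp4 and Spry4 and left 5 calls over all genes. Calls over all genes were 999 without Hes1-null replicate 1, 15 without Hes1-null replicate 2, 6 without wild-type replicate 2 and 17 at the 25th percentile filter. Of the values of 47 named genes under the alternatives, 615 kept their direction and their side of the threshold, 27 newly passed it, 7 no longer did and 3 changed sign.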
